A study of Mus musculus with 5 samples.

Results

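Ccl2, Ccl7 and Ccl12 are the mouse genes for 3 chemokines that attract monocytes through the receptor CCR2. They were taken from the deposited table by gene symbol, and all 3 of the 3 were found among its 21878 gene symbols. The table came from RNA sequencing of 5 libraries of RAW264.7, a line of mouse cells that behave like macrophages. There were 2 libraries of cells given LPS at 0.5 mg/mL together with arctigenin at 1 μM, 2 of cells given LPS at 0.5 mg/mL alone, and 1 of cells described only as having vector. Doses are as labelled, no treatment time is given in the sources used here, and no label identifies a solvent control for arctigenin, so effects of arctigenin and of whatever it was dissolved in cannot be told apart. LPS is the outer membrane lipid of Gram-negative bacteria that activates macrophages through TLR4, and arctigenin is a plant lignan.

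Chemokines are small secreted proteins that direct the migration of leukocytes through G-protein-coupled receptors. CCL2 (MCP-1), CCL7 (MCP-3) and CCL12 (MCP-5, found in mice) are ligands of CCR2, the receptor that lets inflammatory monocytes leave the bone marrow and enter inflamed tissue. In macrophages stimulated through TLR4, Ccl2 is known as a target of NF-κB, and type I interferon adds to the induction of several CC chemokines.

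Estimated counts summed to between 19836203 and 21578355 in a library. The 10 prepared macrophage markers had counts in every group, with a summed level of 7531 to 8254 CPM (counts scaled to a common library total, here with TMM factors) with LPS and arctigenin, 6687 to 6848 CPM with LPS and 8727 CPM in vector. Without Cd14, a marker that itself responds to treatment, the other 9 summed to 5103 to 5233 CPM with LPS and arctigenin, 5400 to 5570 CPM with LPS and 7317 CPM in vector, so that arctigenin no longer lay above LPS. Of the markers of other cells, the 4 T cell genes summed to 0.211 to 0.373 CPM with LPS and arctigenin, 0 to 0.0490 CPM with LPS and 0.0398 CPM in vector. With LPS and arctigenin these were 7 and 4 counts of Cd8a, while Cd3e and Cd3g were at 0 in every library. The 3 B cell genes had at most 2 counts each in any library, and of the 4 epithelial genes Epcam was at 0 in every library and the others had at most 9 counts. The 6 fibroblast markers together reached 1.33 to 1.42 CPM with LPS and arctigenin, 4.72 to 5.74 CPM with LPS and 0.876 CPM in vector, and the 4 endothelial markers 3.35 to 3.48 CPM, 1.66 to 1.67 CPM and 1.12 CPM in the same order. The fibroblast list was thus highest with LPS, as were Ccl2 and Ccl7, and the endothelial and T cell lists were highest with LPS and arctigenin, as was Ccl12. These sums rest on few genes. Dcn alone had 3.87 and 3.36 CPM with LPS, and Pecam1 alone had 2.55 and 2.48 CPM with LPS and arctigenin. The endothelial markers Cdh5 and Kdr were not called between these groups. The part of these lists in the chemokine levels was not tested.

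The 3 genes lie on chromosome 11 in the same orientation, on the plus strand of build mm9. Ccl2 runs from 81849073 to 81850955, Ccl7 from 81859214 to 81861027 and Ccl12 from 81915347 to 81916902, and each is annotated as protein-coding. Ccl7 starts 10.1 kb and Ccl12 66.3 kb after the start of Ccl2. Ccl11, which encodes the eosinophil attractant eotaxin, lies between Ccl7 and Ccl12, and Ccl8, which encodes MCP-2, lies beyond Ccl12. Each of the 3 members is represented by 1 curated RefSeq transcript in the table, so that no division of counts between transcripts of the same gene enters their values. Their coding sequences share 69.3% to 72.4% of the aligned bases (210 of 290 between Ccl2 and Ccl7, 217 of 313 between Ccl2 and Ccl12, 202 of 291 between Ccl7 and Ccl12). The longest run of identical bases between 2 of their transcripts is 23, between Ccl2 and Ccl7. Ccl12 shares runs of at most 17 bases with Ccl2 and 11 with Ccl7. No label says how reads that fit more than 1 gene were counted. In this annotation the gene model Gm17268 overlaps Ccl2 on the opposite strand. No source used here says if reads were assigned by strand, and reads of that model and of Ccl2 cannot be told apart where they overlap.

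Of the members, Ccl12 was the one whose level was higher with arctigenin. It was also the only one with a promoter entry, so the 250 bases before its annotated start are shown. They are taken from RefSeq on build GRCm38.p6, chr11:82101595-82101844, plus strand, which is a different build from that of the positions above. Capitals mark the only motif found in this window, TATAAA, which starts 31 bases before the gene's start.
Ccl12: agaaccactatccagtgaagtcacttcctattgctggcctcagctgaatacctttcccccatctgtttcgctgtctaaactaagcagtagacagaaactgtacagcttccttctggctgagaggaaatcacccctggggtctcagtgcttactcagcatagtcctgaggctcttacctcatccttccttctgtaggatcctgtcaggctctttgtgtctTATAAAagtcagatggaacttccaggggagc
The search covered both strands, and 12.4% of 32851 promoter windows of the same length hold TATAAA. No match was found to the AP-1 motif TGANTCA (6.75% of windows), the GC box GGGCGG (32.7%), the interferon element GAAANNGAAA (2.98%), the STAT element TTCNNNGAA (7.02%) or the NF-κB motif (7.25%). A match is a description of letters, and its absence concerns this window alone. The window of the neighbouring Ccl8, a gene with next to no counts here, gave the same result. It held TATAAA, at −32 from the start of Ccl8, and none of the other motifs. Of the 3 members, 1 had an entry in the promoter table used. Ccl2 and Ccl7 had none.

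LPS with arctigenin was set against LPS alone to describe how levels differed between these groups. Ccl2 and Ccl7 fell with arctigenin and Ccl12 rose. Ccl2, the main monocyte attractant of the group, had 266 and 259 CPM with LPS and arctigenin, against 513 and 523 CPM with LPS. Replicates lay close together and the groups did not overlap. With 2 libraries in each group, non-overlap alone says little for any member, and its share over all genes was not counted. The means were 262 ± 5.14 CPM with LPS and arctigenin and 518 ± 6.61 CPM with LPS (SD, n = 2 each), a 1.97-fold fall (log2 −0.98 ± 0.06, SE, adjusted p = 2.28e-06 in edgeR's quasi-likelihood test, adjusted by Benjamini-Hochberg). In bulk RNA, fewer cells making a transcript and less of it per cell cannot be told apart.

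Ccl7, whose product also binds CCR1 and CCR3, had 84.0 and 100.4 CPM with LPS and arctigenin, against 230 and 214 CPM with LPS. Both arctigenin libraries lay below both LPS libraries. Ccl7 averaged 92.2 ± 11.6 CPM with LPS and arctigenin and 222 ± 11.5 CPM with LPS (SD, n = 2 each), a 2.41-fold fall (log2 −1.27 ± 0.09, adjusted p = 7.34e-06 in edgeR's quasi-likelihood test). Among the genes tested Ccl7 had the 486th largest fall by fitted log2 fold change and Ccl2 the 815th.

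Ccl12 was near the limit of detection. It had 32 and 47 estimated counts with LPS and arctigenin (1.70 and 2.48 CPM), against 9 and 17 with LPS (0.441 and 0.853 CPM). The groups did not overlap, but libraries of the same group lay well apart. Its level averaged 2.09 ± 0.548 CPM with LPS and arctigenin and 0.647 ± 0.291 CPM with LPS (SD, n = 2 each), a 3.22-fold rise (log2 1.68 ± 0.55, adjusted p = 0.0313 in edgeR's quasi-likelihood test). From the 79 counts with LPS and arctigenin and the 26 with LPS, the ratio was 3.24 with a 95% counting interval of 2.06 to 5.27, which covers counting error only. The call rests on few counts, and it was not stable. It was lost in DESeq2 (adjusted p = 0.106) and with curated transcripts only (0.142 in edgeR's quasi-likelihood test). In the latter, the estimated counts and log2 of Ccl12 were unchanged and its SE was 0.68. The call was also lost without LPS replicate 1 (log2 1.29), without LPS replicate 2 (2.23) and without LPS with arctigenin replicate 2 (1.39). The direction was the same in all 13 alternatives, with log2 values between 1.29 and 2.23. Ccl12 passed the filter on low counts through both arctigenin libraries and LPS replicate 2, the libraries where its count reached 10.

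**Figure D1:**
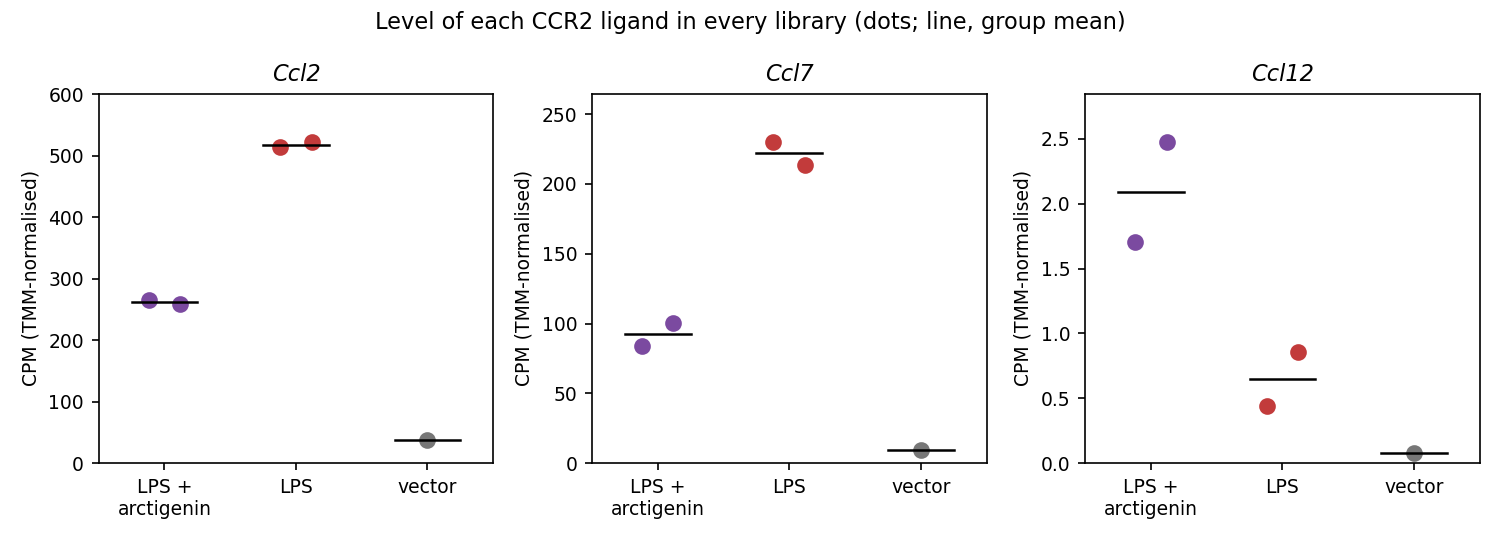
TMM-normalised CPM of Ccl2, Ccl7 and Ccl12 on linear axes of their own, with a dot per library and a line at each group mean (2 libraries with LPS and arctigenin, 2 with LPS, 1 with vector). Ccl2 and Ccl7 stood highest with LPS, at means of 518 and 222 CPM, and Ccl12 stood highest with LPS and arctigenin, at a mean of 2.09 CPM.

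All 3 members were thus called, 2 as lower and 1 as higher, in a comparison where 44.8% of the 11575 genes tested were called (22.0% lower and 22.8% higher). A call by itself was therefore common, and the values above say more than the count.

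LPS against vector describes the change with LPS alone. Ccl2 rose 13.7-fold, to 513 and 523 CPM with LPS against 37.9 CPM in vector (log2 3.77 ± 0.09, SE, adjusted p = 1.71e-09 in edgeR's quasi-likelihood test). Ccl7 rose 23.6-fold, to 230 and 214 CPM with LPS against 9.40 CPM in vector (log2 4.56 ± 0.15, adjusted p = 3.13e-08). Both LPS libraries of both genes stood far above the vector library. Ccl7 had the 154th and Ccl2 the 210th largest rise by fitted log2 fold change among 11575 genes.

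Ccl12 had 9 and 17 estimated counts with LPS, against 2 in vector. The ratio of counts scaled by the library totals and TMM factors was 8.09, with a 95% counting interval of 2.03 to 70.4. The fitted value was log2 2.93 ± 1.03 (adjusted p = 0.0357 in edgeR's quasi-likelihood test), and with so few counts it depends on the prior count of the fit. That call was lost in DESeq2 (adjusted p = 0.0755), limma-voom (0.0814), with curated transcripts only (0.0995) and without LPS replicate 2 (0.155). All 3 members were called as higher with LPS, beside 27.1% of all genes tested called as higher and 52.0% called in either direction. Ccl12 passed the filter on low counts only through libraries given LPS, with or without arctigenin. It was higher there than in vector, so its call here carries little weight. The single vector library has no replicate, and the fit assumed that it varied like the other groups.

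With LPS and arctigenin together, all 3 genes remained above vector. Ccl2 was 6.92-fold higher, at 266 and 259 CPM with LPS and arctigenin against 37.9 CPM in vector (log2 2.79 ± 0.09, adjusted p = 9.02e-09 in edgeR's quasi-likelihood test). Ccl7 was 9.80-fold higher, at 84.0 and 100.4 CPM against 9.40 CPM in vector (log2 3.29 ± 0.14, adjusted p = 1.54e-07). Ccl12, with 32 and 47 counts against 2 in vector, had a ratio of counts of 26.3 (95% counting interval 7.03 to 220.7) and a fitted log2 of 4.61 ± 0.96 (adjusted p = 0.00228), a call made in all 11 alternatives. Ccl12 passed the filter on low counts only through libraries given LPS, where it was higher than in vector, so this call carries little weight. In this comparison 30.4% of genes tested were called as higher and 56.2% in either direction. The 3 comparisons share libraries, so they do not bear on each other independently.

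The size of the induction that was present with arctigenin can be set on the CPM scale. Above vector, Ccl2 stood 224 CPM higher with LPS and arctigenin and 480 CPM higher with LPS, so 46.8% of the LPS-induced increment was present with arctigenin (46.0% and 47.5% in the 2 libraries). For Ccl7 the share was 38.9% (35.1% and 42.8%), from 82.8 CPM above vector with LPS and arctigenin and 213 CPM with LPS. For Ccl12 it was 354% (286% and 423%), from an increment of 2.01 CPM with LPS and arctigenin and 0.568 CPM with LPS. That share rests on few counts: against LPS replicate 1 alone it was 556%, and against LPS replicate 2 alone 260%. The same change of library left Ccl2 between 46.3% and 47.2% and Ccl7 between 37.5% and 40.5%. Over the 5 libraries the order of levels, low to high, was vector, LPS with arctigenin, LPS for Ccl2 and Ccl7, and vector, LPS, LPS with arctigenin for Ccl12. Every neighbouring pair in these orders passed the test, for Ccl12 with the exceptions and the limit of the filter given above.

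**Figure D2:**
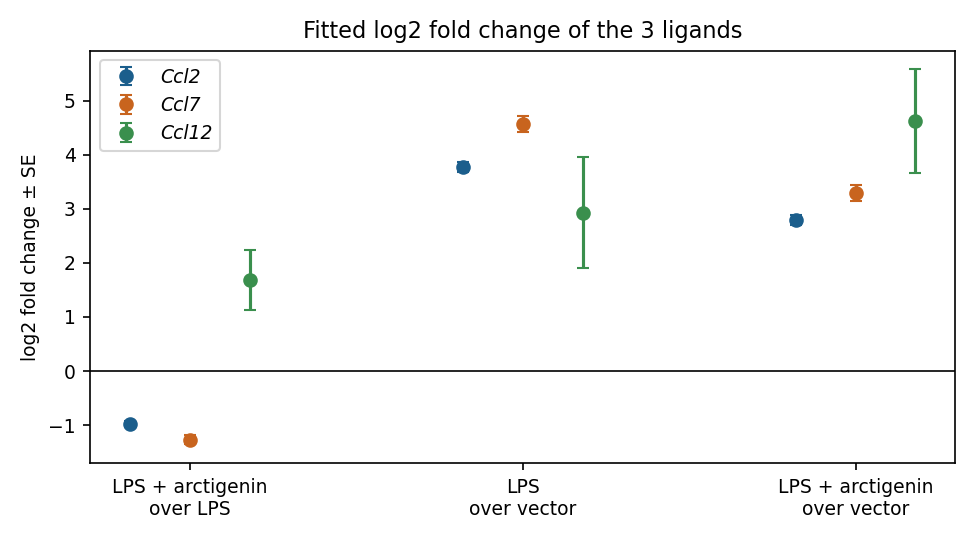
Fitted log2 fold change with its SE for Ccl2, Ccl7 and Ccl12 in the 3 comparisons, from 1 fit over 5 libraries. Below 0, the left group shows Ccl2 at −0.98 and Ccl7 at −1.27, while Ccl12 lies at 1.68 with a wider error, and all values against vector lie above 0.

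Levels of different genes were compared as length-scaled CPM, the counts per base of transcript taken as a share of their sum over all genes with a known length, a scale similar to TPM. On that scale Ccl2 had 703 and 703 length-scaled CPM with LPS and arctigenin, 1510.2 and 1520.3 with LPS and 129 in vector. Ccl7 had 225 and 277 with LPS and arctigenin, 687 and 631 with LPS and 32.4 in vector. Ccl12 had 6.82 and 10.2 with LPS and arctigenin, 1.97 and 3.76 with LPS and 0.409 in vector. Ccl2 was therefore the most abundant of the 3 in every library, at 2.20 to 3.97 times the level of Ccl7, and Ccl12 never made up more than 1.03% of their sum. The summed level of the 3 genes per length was 935 and 990.3 with LPS and arctigenin, against 2200 and 2155 with LPS and 161 in vector.

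How the members divided their summed level among themselves was described by shares and ratios. On the length-scaled CPM, Ccl7 made up 24.1% and 27.97% of the sum with LPS and arctigenin, 31.3% and 29.3% with LPS and 20.1% in vector. The log2 ratio of the CPM of Ccl7 to that of Ccl2 averaged −1.51 with LPS and arctigenin and −1.22 with LPS, a difference of −0.29, while the arctigenin libraries themselves lay 0.30 apart and the LPS libraries 0.13 apart. The groups did not overlap, and the exact two-sided permutation p was 0.333, the smallest that 2 libraries against 2 allow. The log2 ratio of Ccl12 to Ccl2 averaged −7.00 with LPS and arctigenin and −9.72 with LPS. That difference of 2.72 was larger than the gaps of 0.58 and 0.93 between libraries of the same group, and its exact permutation p was again 0.333. The ratio of Ccl12 to Ccl7 differed by 3.02, with gaps of 0.28 between the arctigenin libraries and 1.06 between the LPS libraries and the same exact p of 0.333. For each of these ratios the smallest and largest differences between single libraries had the same sign. The ratios with Ccl12 rest on its 9 and 17 counts with LPS and 2 in vector, so counting error enters their gaps and differences.

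**Figure D3:**
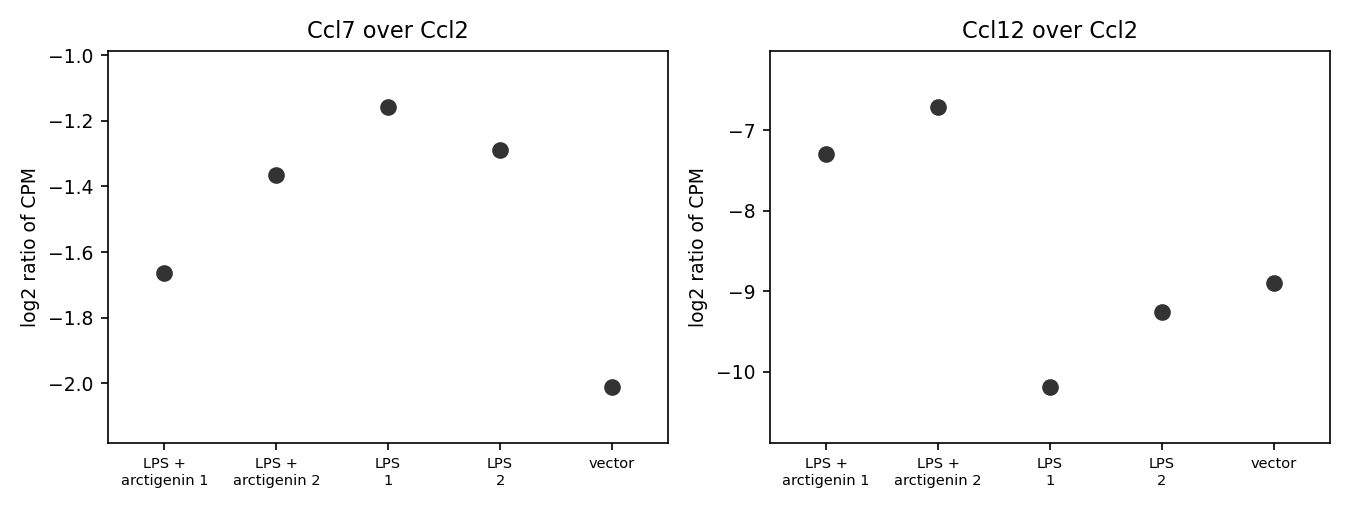
Log2 ratio of CPM of Ccl7 over Ccl2 (left) and of Ccl12 over Ccl2 (right), with a dot per library. On the right the arctigenin libraries lie at −7.29 and −6.71, above LPS at −10.18 and −9.26 and vector at −8.89. These rest on 9 and 17 counts of Ccl12 with LPS and 2 in vector. On the left vector is lowest at −2.01.

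Neighbours in the same cluster were almost silent. Ccl11 had 0 counts in every library but LPS replicate 1, which had 1. Ccl8 had 2 counts in LPS replicate 1 and 0 in the others. A count of 0 in a library allows up to 3 counts at a one-sided 95% limit, which covers counting error only. Within this cluster, high levels were thus found at Ccl2 and Ccl7, low levels at Ccl12, and next to none at Ccl11 and Ccl8, on either side of Ccl12.

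**Figure D4:**
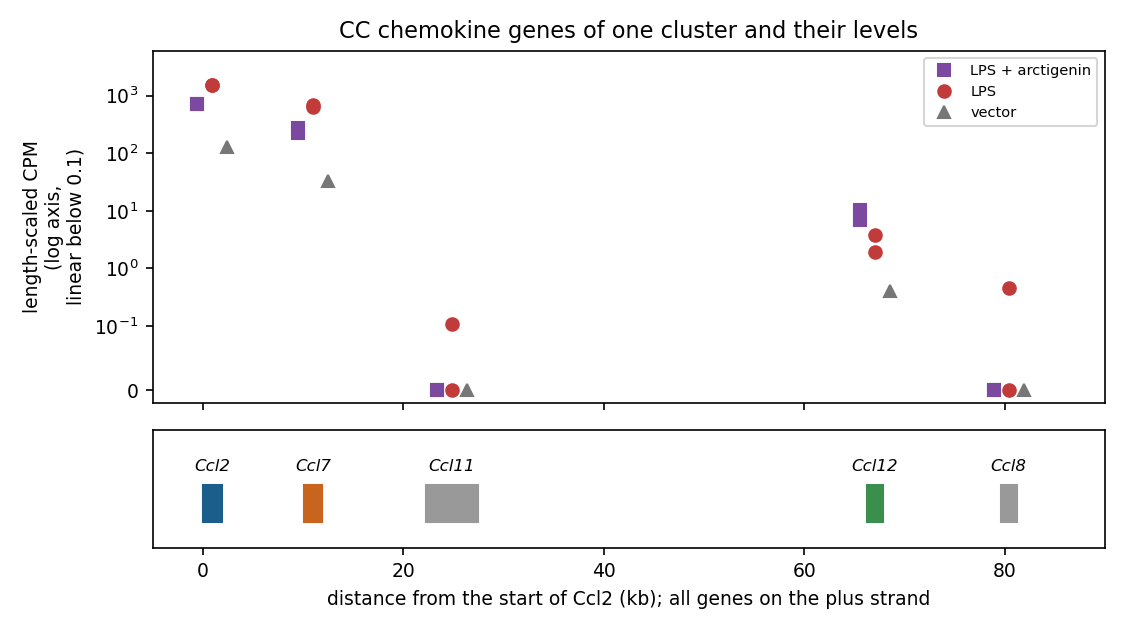
Upper panel, length-scaled CPM (log axis, linear below 0.1) in each library for 5 chemokine genes. The lower panel places each gene by its distance from the start of Ccl2 in kb. Ccl2 and Ccl7 lie 10.1 kb apart and are high, Ccl12 is low and starts 66.3 kb from Ccl2, and Ccl11 and Ccl8 are at or near 0.

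The other CC chemokine ligands on a prepared list of 18 give the setting. Of them 9 passed the filter. With LPS and arctigenin against LPS 3 rose, 4 fell and 2 were not called, beside 22.8% of all genes tested called as higher and 22.0% as lower. The 9 had a median log2 fold change of −0.33 against 0.00 over all genes tested. Those that fell were Ccl6 (2.71-fold, log2 −1.44 ± 0.11), Ccl4 (1.30-fold, log2 −0.38 ± 0.06), Ccl9 (1.30-fold, log2 −0.38 ± 0.06) and Ccl3 (1.26-fold, log2 −0.33 ± 0.06). Ccl3 and Ccl4 encode MIP-1α and MIP-1β. Per length, Ccl3 and Ccl4 stood above Ccl2 in every library, at 11695 and 11905 length-scaled CPM for Ccl3 and 4499 and 4305 for Ccl4 with LPS and arctigenin, 16552 and 15924 for Ccl3 and 6302 and 6186 for Ccl4 with LPS, and 6365 and 1651 in vector.

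Ccl5 (RANTES) rose with arctigenin, as Ccl12 did. It had 463 and 349.7 CPM with LPS and arctigenin, 119 and 148 CPM with LPS and 3.35 CPM in vector (3.04-fold over LPS, log2 1.60 ± 0.16, adjusted p = 0.00051 in edgeR's quasi-likelihood test). Ccl22, which attracts regulatory T cells through CCR4, had 169 and 79.7 CPM with LPS and arctigenin, 9.36 and 9.59 CPM with LPS and 0.438 CPM in vector (log2 3.71 ± 0.39 over LPS). Ccl24, an eotaxin, had 15 and 17 counts with LPS and arctigenin, 0 and 3 with LPS and 2 in vector, and was the other one called. These were almost all counts of predicted transcripts, as its curated transcript had at most 1 count in any library. Ccl24 passed the filter on low counts only through the arctigenin libraries, where it was high, so its call as higher carries little weight. Ccl17 had 38 and 12 counts with LPS and arctigenin, 0 and 8 with LPS and 0 in vector, and Ccl25 had 22 and 33, 42 and 37, and 87 in the same order. Neither was called (adjusted p = 0.0713 for Ccl17 and 0.374 for Ccl25). Against vector, LPS raised 6 of the 9, with 3 not called and a median log2 fold change of 2.13. In that comparison 27.1% of all genes tested were called as higher.

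**Figure D5:**
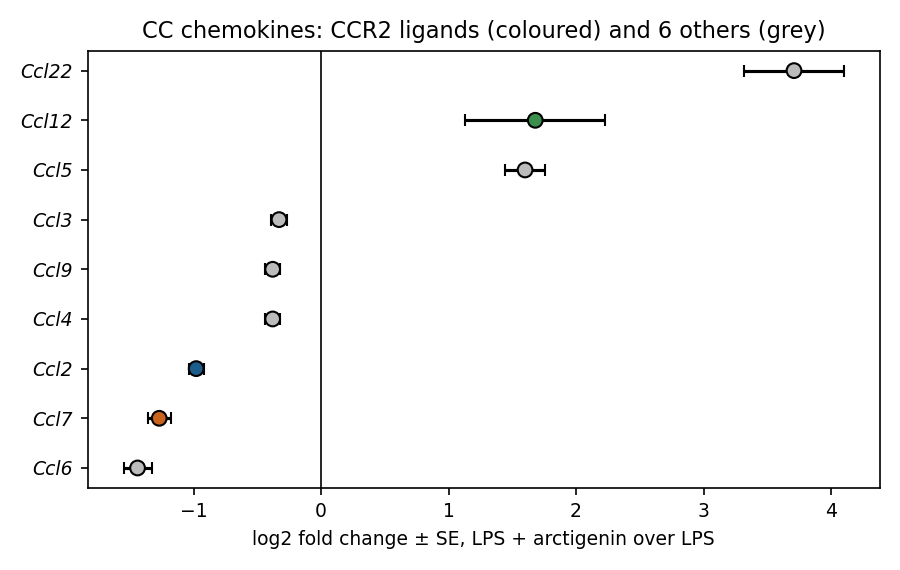
Fitted log2 fold change with its SE, LPS and arctigenin over LPS, for the 3 CCR2 ligands (coloured) and the other CC chemokines with a mean log2 CPM of at least 2 (grey). Ccl22, Ccl12 and Ccl5 lie above 0, and Ccl7 and Ccl2 lie between Ccl6 and the closely grouped Ccl3, Ccl4 and Ccl9 below 0.

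The receptor of these ligands was measured in the same cells. Ccr2 had 22.5 and 22.8 CPM with LPS and arctigenin, 34.0 and 28.7 CPM with LPS and 19.6 CPM in vector. It fell 1.38-fold with arctigenin over LPS (log2 −0.47 ± 0.11, adjusted p = 0.00735 in edgeR's quasi-likelihood test) and rose 1.60-fold with LPS over vector (log2 0.68 ± 0.14, adjusted p = 0.00245). With LPS and arctigenin it was not called against vector (log2 0.21 ± 0.14, adjusted p = 0.225). Unlike the 3 ligands, Ccr2 was summed over 4 transcripts that did not move alike. Its curated transcript had 11.4 and 7.72 CPM with LPS and arctigenin, 20.8 and 15.1 CPM with LPS and 13.7 CPM in vector. The most abundant of its predicted transcripts had 9.67 and 12.6 CPM with LPS and arctigenin, 10.6 and 11.2 CPM with LPS and 5.08 CPM in vector. The arctigenin libraries thus lay below LPS and below vector on the curated transcript, and on either side of LPS and above vector on the predicted one. With curated transcripts only, an alternative added for Ccr2 after seeing the data, no call was made: log2 was −0.92 ± 0.27 with arctigenin over LPS (adjusted p = 0.0728), 0.40 ± 0.33 with LPS over vector (0.411) and −0.52 ± 0.33 with LPS and arctigenin over vector (0.275), the last opposite in sign to the summed value. The fall of summed Ccr2 with arctigenin was also not called without LPS replicate 1 (log2 −0.34, adjusted p = 0.0993). Ccr1, a receptor of CCL7, fell 3.94-fold with arctigenin, with 33.1 and 38.2 CPM against 143 and 137 CPM with LPS, and vector had 36.6 CPM. Ccrl2, an atypical receptor that does not signal for migration, fell 2.05-fold (12.9 and 17.8 CPM against 31.3 and 31.7 CPM with LPS). The eosinophil receptor Ccr3 had at most 6 counts, and the scavengers Ackr1 and Ackr2 had 0 to 1 count in any library. Of these 6 receptors and scavengers 3 passed the filter, and all 3 of those fell with arctigenin, Ccr2 with the exceptions given above. Beside this count, 22.0% of all genes tested were called as lower.

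The genes upstream of these chemokines were taken from prepared lists and are described by counts alone. Of 24 tested genes of LPS sensing and NF-κB, 5 rose and 10 fell with arctigenin over LPS (median log2 −0.16). The LPS co-receptor Cd14 rose 2.12-fold (3021 and 2428 CPM against 1279 and 1287 CPM with LPS). The NF-κB cofactor Nfkbiz fell 1.82-fold, to 265 and 303 CPM against 493 and 539 CPM with LPS. Of 12 AP-1 and EGR genes 2 rose and 6 fell (median −0.37), with Egr1 down 12.1-fold, at 6.39 and 6.48 CPM against 75.9 and 79.7 CPM with LPS. Batf, also an AP-1 family gene, was called at 0.373 and 0.422 CPM against 1.62 and 1.10 CPM with LPS. It passed the filter on low counts only through the LPS libraries, where it was high, so its call as lower carries little weight.

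Of 16 interferon and STAT genes 1 rose and 9 fell with arctigenin over LPS (median −0.30). Irf1, a transcription factor induced by interferon, fell 2.93-fold, to 13.1 and 14.4 CPM against 38.2 and 42.4 CPM with LPS, and Irf3 fell 1.57-fold. Irf7, the factor that amplifies the type I interferon response, was the one that rose (log2 0.27 ± 0.06). Of 11 regulators of RNA decay and stability 7 rose and 1 fell (median 0.45), with the decay factor Zfp36l2 up 2.52-fold (319 and 221 CPM against 104 and 109.9 CPM with LPS) and Zfp36l1 up 1.82-fold. The one that fell was Zfp36, tristetraprolin, which promotes decay of RNAs with AU-rich elements (log2 −0.34 ± 0.06). Beside these counts stand 22.8% of all genes tested called as higher and 22.0% called as lower. With curated transcripts only, fewer genes were called in all: 1372 of the 10931 tested were higher with arctigenin over LPS and 1160 lower. In that setting 1 gene of LPS sensing and NF-κB rose and 6 fell, and 2 AP-1 and EGR genes rose and 3 fell. In the other lists 2 interferon and STAT genes rose and 5 fell, and 5 regulators of RNA decay and stability rose and 1 fell. Batf (adjusted p = 0.145) and Irf3 (0.241) were then not called.

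With LPS over vector, 8 of the 24 LPS sensing and NF-κB genes rose and 7 fell, with the inhibitor Nfkbia up 4.19-fold and the NF-κB cofactor Bcl3 up 3.55-fold. Of the 16 interferon and STAT genes 13 rose and 1 fell, with the signalling inhibitor Socs3 up 27.8-fold and Irf7 up 5.26-fold. Of the 12 AP-1 and EGR genes 5 rose and 2 fell, with Fosl2 up 3.38-fold. Of the 11 RNA decay and stability genes 5 rose and 6 were not called. Zfp36 rose 5.50-fold and the ribonuclease Zc3h12a, known in human monocytes as a protein induced by CCL2, rose 4.06-fold. Beside these counts, 27.1% of all genes tested were called as higher and 24.9% as lower.

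The genes most like each member were sought by the Euclidean distance between log2 CPM profiles over the 5 libraries, each centred on its own mean, among 9483 genes with a mean log2 CPM of at least 2. Members and unnamed gene models were passed over when the nearest 5 were named. For Ccl2 the nearest named genes were Sema4c (distance 0.10), Dusp2 (0.25), Scimp (0.27), Il1a (0.37) and Prokr1 (0.37). Sema4c, a semaphorin, had 26.8 and 25.04 CPM with LPS and arctigenin, 51.5 and 51.7 CPM with LPS and 3.94 CPM in vector. For Ccl7 they were Tnfrsf1b (0.18), Pfkfb3 (0.41), Mfap3l (0.42), Rsad2 (0.49) and Il1f9 (0.49). Tnfrsf1b, the second TNF receptor, had 844 and 912 CPM with LPS and arctigenin, 2413 and 2262 CPM with LPS and 93.2 CPM in vector.

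For Ccl12 the nearest were Gadd45g (0.51), Rab3il1 (0.66), Rgs16 (0.76), Nr1d1 (0.88) and Phf11b (0.93). Gadd45g, a stress-induced gene, had 22.1 and 21.1 CPM with LPS and arctigenin, 6.82 and 9.79 CPM with LPS and 1.67 CPM in vector. The distance between Ccl2 and Ccl7 was 0.68, which placed Ccl7 at rank 17 among the genes nearest to Ccl2. Ranks count the unnamed gene models too. Ccl12, whose own mean log2 CPM of −0.25 is under that minimum, lay 2.69 from Ccl2 and 3.10 from Ccl7. Placed among the genes searched, it would stand at rank 1893 from Ccl2 and 1166 from Ccl7. The log2 CPM of the profiles used a prior count of 2, as large as the 2 counts of Ccl12 in vector. The neighbours, distances and ranks of Ccl12 therefore depend on that prior. These distances describe 5 libraries and say nothing of shared control.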

How the data were processed

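The deposited table held estimated counts per RefSeq transcript for 5 libraries (75959 transcripts, 21878 symbols). Per the submitters' processing notes, build mm9 was used, with DESeq, HTSeq, Cufflinks, HISAT2 and Trimmomatic; versions, roles and the tool behind the estimates are not given in the sources used here. Estimated counts were summed per symbol and rounded. Genes were tested in R 4.3.3 with edgeR 4.0.16 (TMM, filterByExpr with a minimum count of 10 and total of 15, robust quasi-likelihood fit, group as the only term, all 5 libraries, 2 residual degrees of freedom). This kept 11575 genes. P-values were adjusted by Benjamini-Hochberg over all of them and called under 0.05. SEs were derived by dividing the log2 fold change by the root of F. Alternatives used DESeq2 1.42.0, limma 3.58.1, other scaling, no filter, curated transcripts, fewer libraries and a replicate block. No label says that replicates were separate cultures, and p-values then reflect only how far these samples differ, which may be technical. Lengths were the longest coding transcript per symbol in GENCODE (18937 symbols, 93.6% to 94.1% of counts). The fit was tested on simulated data. Named genes were the members, all listed CC chemokines and receptors, up to 2 called genes per further list and comparison, and the 5 nearest profiles per member; some are not used here, and 1 listed gene is not reported, and others in the upstream lists were named after their values were seen. Members and lists were chosen with earlier results of these data known.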

Additional observations from a re-analysis of the deposited data

How the results depend on the processing

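Ccl2 and Ccl7 kept their direction and their call in all 3 comparisons under every alternative run, 13 for LPS with arctigenin against LPS and 11 for each comparison with vector. With LPS and arctigenin against LPS, log2 values lay between −1.0 and −0.96 for Ccl2 and between −1.40 and −1.14 for Ccl7. For Ccl12 in that comparison the call was lost at an unchanged log2 of 1.68 in DESeq2 and with curated transcripts only, and leaving out a library gave 1.29 to 2.23. For Ccl12 with LPS against vector the call was lost in DESeq2 (log2 3.01), limma-voom (2.68) and with curated transcripts only (2.94), and leaving out a library gave 2.38 to 3.33. The cause was not tested.

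The count of genes called with curated transcripts only was 2532 for LPS with arctigenin against LPS (5180 with all transcripts), 3211 for LPS over vector (6024) and 3815 with arctigenin and LPS over vector (6503). Leaving out a library gave 3234 to 5180 for LPS with arctigenin against LPS, lowest without LPS replicate 1. Upper quartile factors moved the median of all genes to −0.17 for LPS over vector, from −0.01 with TMM, and to −0.14 for LPS with arctigenin against vector, from 0.03. The calls were then 2366 higher and 3901 lower (3137 and 2887 with TMM) and 2641 higher and 3905 lower (3524 and 2979). With the replicate number as a block, 5320 genes were called and Ccl12 was at 1.71, Ccl2 at −0.98 and Ccl7 at −1.27. The labels do not say that a number marks a shared batch, and deviations of equal numbers correlated at r = −0.01 across genes. Counts that were not rounded, an alternative chosen after seeing the data, changed no call of the 3 genes. For Ccr2, added at the same stage, curated transcripts turned the sign with LPS and arctigenin over vector (log2 −0.52 against 0.21, neither called). Depth limits Ccl12, with 2 to 47 counts per library.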
